A study of Mus musculus with 8 samples.

Results

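NRF2 and 9 antioxidant genes were followed in peritoneal macrophages of mice that lacked FURIN in myeloid cells and of their WT littermates. The 10 genes were chosen by name, and each was taken from its gene probes on the array, matched through the RefSeq accession that the scanner files give for the probe. All 10 were found among 37018 genes and transcripts on the array, with the brightest probe over all arrays standing for a gene. They are Nfe2l2, which encodes NRF2, and Hmox1, Nqo1, Gclc, Gclm, Txnrd1, Srxn1, Slc7a11, Prdx1 and Sod2. Their probes were well above background in all 16 channels, and none was saturated.

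The RNA came from adherent peritoneal cells of C57BL/6 mice, cultured for a day before use. KO mice were LysMCre-fur fl/fl animals, in which Cre recombinase expressed from the Lyz2 locus removes a floxed part of Furin in LysM+ myeloid cells, and WT mice were littermates without the deletion. The age of the array animals, and how many animals stood behind a sample, is not given in the sources used here. Cells were left unstimulated or received lipopolysaccharide (LPS, 1 μg/ml), a bacterial cell wall component sensed by Toll-like receptor 4, for 1, 4 or 24 h. The growth protocol of the labels names 4 h for every sample, so the times were taken from the sample titles. Each time point had 2 two-colour arrays, numbered as biological replicates 1 and 2, and each array held KO and WT RNA of 1 time point. KO was labelled with Cy5 in replicate 1 and with Cy3 in replicate 2, so replicate number and dye orientation cannot be told apart.

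NRF2 is a transcription factor that KEAP1 holds at a low level in resting cells by directing its degradation. Oxidants and electrophiles modify KEAP1, NRF2 then accumulates and, together with small MAF proteins, binds antioxidant response elements near genes for glutathione synthesis, thioredoxin recycling, quinone reduction and haem breakdown. In macrophages this system limits oxidative damage during the inflammatory response. NRF2 is regulated mainly as a protein, and arrays read only its mRNA.

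The promoters of the 10 genes were searched for the core of the antioxidant response element, because its presence is the textbook link between these genes. RefSeq promoters of the GRCm38.p6 build were at hand for 8 of the 10 genes, with 3 starts for Txnrd1 and 1 for each of the others, and the 250 bases before the start were searched on both strands for the core TGACNNNGC and for the AP-1 site TGANTCA, which can overlap it. The core was found before a start of 4 genes (Nfe2l2, Gclm, Txnrd1 and Prdx1), and it occurs in 10.2% of 32851 mouse promoters. The AP-1 site was found in 2 genes (Srxn1 and Prdx1), against 6.75% of all promoters. Neither motif lay in the searched bases of Nqo1, Slc7a11 or Sod2. Each match is shown with up to 25 bases on either side, read 5′ to 3′ along the gene, with the motif in capitals.
Nfe2l2, chr2:75704870-75704913, minus strand: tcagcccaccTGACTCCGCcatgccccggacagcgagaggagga
Gclm, chr3:122245398-122245456, plus strand: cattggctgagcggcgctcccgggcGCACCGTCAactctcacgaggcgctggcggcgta
Txnrd1, chr10:82859089-82859147, plus strand: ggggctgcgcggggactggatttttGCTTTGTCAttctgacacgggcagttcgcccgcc
Srxn1, chr2:152105397-152105510, plus strand: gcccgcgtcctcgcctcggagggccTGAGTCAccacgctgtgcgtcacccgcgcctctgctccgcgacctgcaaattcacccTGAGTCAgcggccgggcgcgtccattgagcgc
Prdx1, chr4:116685349-116685393, plus strand: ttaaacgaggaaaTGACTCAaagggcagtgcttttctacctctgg
Prdx1, chr4:116685441-116685499, plus strand: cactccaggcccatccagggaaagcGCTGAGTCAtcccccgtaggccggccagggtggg
The 9 capitals of the second Prdx1 window hold both motifs, which overlap there. A match of letters is a description of the sequence and no measurement of binding.

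Furin itself was lower in KO RNA on 6 of the 8 arrays. Its log2 KO/WT ratios were -0.61 and -0.84 unstimulated, -0.56 and -0.53 after 1 h, and -0.58 and -0.68 after 24 h. On the 4 h arrays they were 0.00 and 0.33, so the RNA labelled KO was not lower in Furin there by this probe. The study reports that Furin mRNA was nearly absent from KO macrophages and neutrophils. Whether the array probe lies within the deleted part of Furin was not examined. Lyz2, whose locus carries the Cre, was lower on all 8 arrays, with a mean of -1.18 (SE 0.06, adjusted p = 0.000508, and 0.0957 with the Agilent processed signals, under which no gene was called for the mean). All 6 LPS check genes (Tnf, Il1b, Il6, Cxcl10, Nfkbia and Ptgs2) were called higher after 1 h in both genotypes. Macrophage markers were well above background for 8 of 8 measured genes, as were 6 of 6 B cell, 6 of 6 T and NK cell and 6 of 6 mast cell markers, against 2 of 5 for neutrophils and 0 to 3 of 6 for mesothelial and stromal cells. Markers of other peritoneal cells were thus measured in these cultures, and in bulk RNA fewer cells of a type and less RNA per cell cannot be told apart.

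LPS changed part of the set, in several time courses. Slc7a11 and Sod2 were higher at all 3 times in both genotypes, Txnrd1 was higher at 4 h in both and at 1 h in WT, and Nfe2l2 was higher at 1 h and lower at 24 h. Gclc was lower at 24 h, Nqo1 increased between 4 and 24 h, and Gclm and Prdx1 passed the threshold in none of the comparisons between time points. All changes below are log2 differences of normalized intensity from a separate-channel fit across 36927 genes and transcripts, with p-values adjusted over all of them and a threshold of 0.05. In WT cells, 4 of the 10 genes were called after 1 h, beside 8.57% of all genes tested, 3 after 4 h, beside 34.8%, and 4 after 24 h, beside 30.4%. In KO cells, 3 were called after 1 h, beside 7.53% of all genes, 3 after 4 h, beside 36%, and 4 after 24 h, beside 28.7%. Between 1 and 4 h, 2 were called in WT, beside 29.7%, and 5 in KO, beside 31.7%, and between 4 and 24 h, 5 were called in each genotype, beside 29.8% in WT, where 15.3% were called higher, and 30.7% in KO. With loess normalization alone the balance over all genes between 4 and 24 h in WT was 22.4% higher and 5.69% lower. All 3 calls at 4 h were higher, and at 24 h 2 were higher and 2 lower in each genotype. These shares include genes near background. With only probes well above background tested, the WT counts at 1, 4 and 24 h were 5, 3 and 4, beside 16.9%, 61.8% and 55.2%. The KO counts were 3, 4 and 5, beside 15%, 63.4% and 52.3%.

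Marker sums of the cell types moved over the same times. The macrophage sum differed from unstimulated cells by -0.56 in WT and -0.27 in KO at 4 h, and by -1.21 and -1.48 at 24 h. The B cell sum stood at -0.92 in WT and -1.38 in KO at 4 h, and the T and NK cell sum at -0.82 and -1.11. At 24 h the mast cell sum stood at -1.99 in WT and -1.65 in KO, and the neutrophil sum at 3.58 and 4.26. Their part in the LPS changes of the 10 genes and of the pathway lists below was not tested. Of the 5 neutrophil markers measured, 2 were well above background at 24 h in each genotype. A sum cannot tell a change in the number of cells from a response of the marker genes themselves to LPS.

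**Figure D1:**
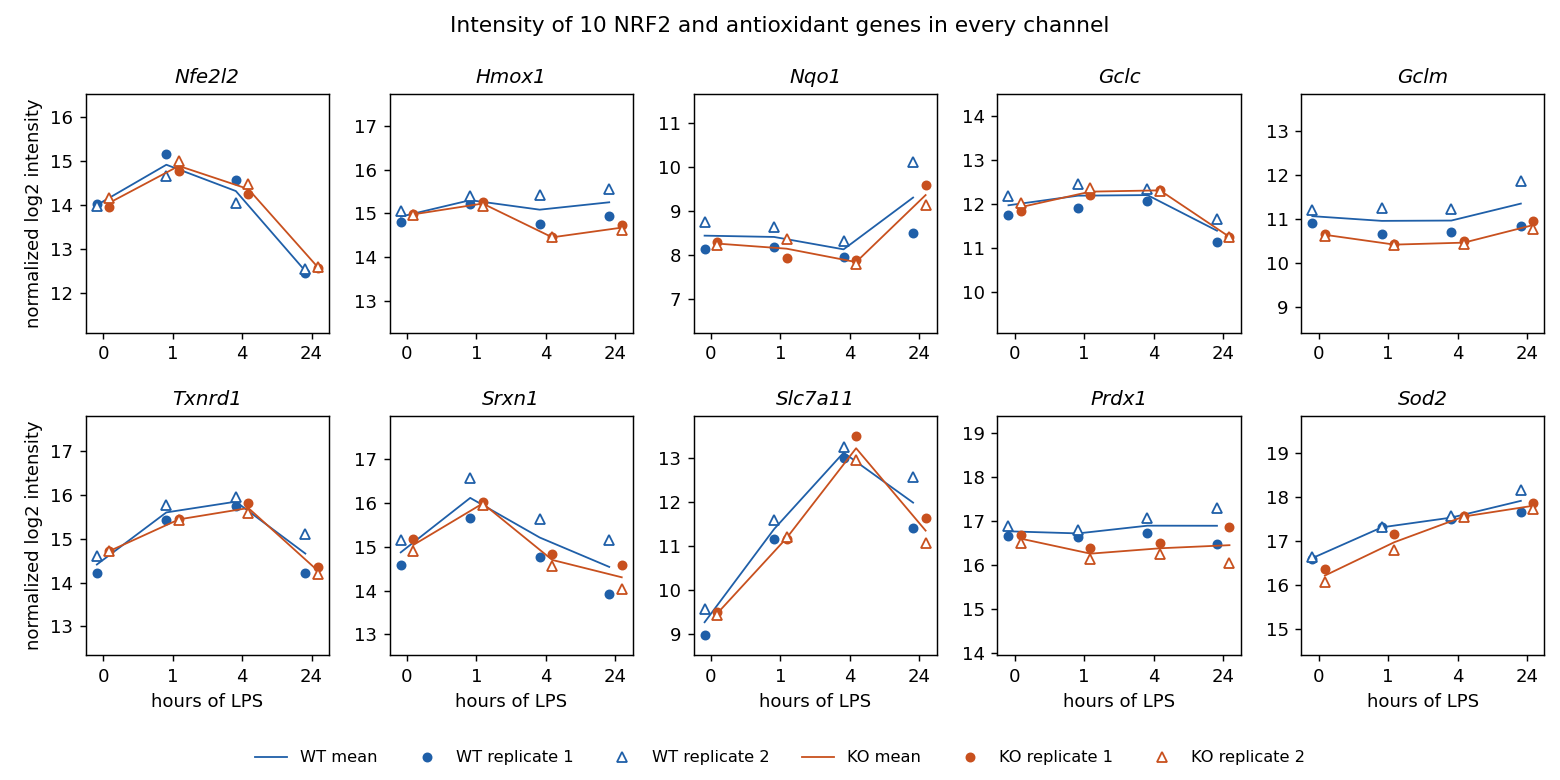
Normalized log2 intensity of the 10 genes (y axis, 1 panel per gene, each spanning the same range) against hours of LPS (x axis, times evenly spaced). Filled circles are replicate 1, open triangles replicate 2, lines the mean, blue WT and orange KO. Slc7a11 spans the widest range, from 8.96 to 13.50, while Prdx1 stays between 16.03 and 17.29.

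Slc7a11 had the widest range of the 10 genes. It encodes the light chain of the cystine/glutamate antiporter xCT, which brings in the cystine from which glutathione is made. In WT cells its log2 intensities were 8.96 and 9.56 unstimulated, 11.17 and 11.60 after 1 h, 13.00 and 13.25 after 4 h, and 11.40 and 12.57 after 24 h. In KO cells they were 9.50 and 9.42, then 11.15 and 11.20, 13.50 and 12.95, and 11.63 and 11.06. The lowest channel at any LPS time was above the highest unstimulated channel in either genotype. The increase in WT was 2.12 at 1 h (SE 0.34, adjusted p = 0.000923), 3.86 at 4 h (adjusted p = 5.03e-07) and 2.72 at 24 h (adjusted p = 2.19e-05), which is 4.35-fold, 14.5-fold and 6.61-fold. In KO it was 1.72, 3.77 and 1.89 (SE 0.34, adjusted p = 0.00548, 6.58e-07 and 0.000575), or 3.29-fold, 13.6-fold and 3.71-fold. The mRNA peaked at 4 h, with a rise of 1.74 in WT and 2.05 in KO from 1 h, and fell by 1.14 in WT and 1.88 in KO from 4 to 24 h. The fall in WT missed the threshold without LPS 4 h replicate 2 (-1.01, adjusted p = 0.106) or LPS 24 h replicate 1 (-0.55, adjusted p = 0.195) and with loess normalization alone (-0.82, adjusted p = 0.13), and the 1 h rise in KO without LPS 1 h replicate 2 (1.69, adjusted p = 0.0534).

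Nfe2l2 mRNA rose early and was well below its starting level a day later. WT intensities were 14.03 and 13.96 unstimulated, 15.17 and 14.66 after 1 h, 14.57 and 14.05 after 4 h, and 12.45 and 12.52 after 24 h. KO intensities were 13.94 and 14.15, 14.77 and 15.00, 14.25 and 14.46, and 12.57 and 12.59. All 4 channels at 24 h lay more than 1 log2 unit below every other channel. Nfe2l2 rose by 0.92 in WT (SE 0.18, adjusted p = 0.00568) and by 0.84 in KO (SE 0.18, adjusted p = 0.0121) at 1 h, that is 1.89-fold and 1.79-fold. The differences at 4 h were 0.32 in WT and 0.31 in KO, with adjusted p of 0.230 and 0.236. At 24 h Nfe2l2 had dropped by 1.50 in WT (adjusted p = 2.15e-05) and by 1.47 in KO (adjusted p = 2.9e-05), which is 2.84-fold and 2.77-fold lower than unstimulated. The 1 h call was lost in WT without unstimulated replicate 2 (adjusted p = 0.0561) or LPS 1 h replicate 1 (adjusted p = 0.0781), and in KO without unstimulated replicate 1 (adjusted p = 0.15) or LPS 1 h replicate 2 (adjusted p = 0.0685). The step down from 1 to 4 h was called in WT (-0.60, adjusted p = 0.0243) and KO (-0.53, adjusted p = 0.0438), with the WT value at -0.34 without LPS 1 h replicate 1 or LPS 4 h replicate 2 (adjusted p = 0.261 for both) and the KO call lost without any 1 array other than LPS 1 h replicate 1 and LPS 4 h replicate 2 (adjusted p between 0.0636 and 0.16). With loess alone neither step was called (adjusted p = 0.0571 in WT and 0.0919 in KO), and the KO step was also lost with Aquantile and the Agilent processed signals (adjusted p = 0.0593 and 0.0653).

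Of the thioredoxin arm, Txnrd1 encodes cytosolic thioredoxin reductase, Srxn1 encodes sulfiredoxin, which restores overoxidised peroxiredoxins, and Prdx1 encodes a cytosolic peroxidase that draws its electrons from thioredoxin. WT Txnrd1 read 14.22 and 14.60 unstimulated, 15.42 and 15.77 after 1 h, 15.74 and 15.94 after 4 h, and 14.21 and 15.11 after 24 h. KO Txnrd1 read 14.72 and 14.71, 15.44 and 15.43, 15.81 and 15.59, and 14.34 and 14.19. The 1 h and 4 h channels stood above all unstimulated channels in both genotypes, and those at 24 h did so for 1 of 4 channels, replicate 2 of WT. The WT increase was 1.19 at 1 h (SE 0.23, adjusted p = 0.00428) and 1.43 at 4 h (SE 0.23, adjusted p = 0.000172), or 2.28-fold and 2.70-fold. In KO the change was 0.72 at 1 h (adjusted p = 0.0829) and 0.98 at 4 h (adjusted p = 0.00351), and a fit that took the replicate number as a block (the blocked fit) called the former as well (adjusted p = 0.00395, beside 11.6% of all genes). The KO difference at 24 h was -0.45 (adjusted p = 0.187, blocked fit 0.023). From 4 to 24 h Txnrd1 fell by 1.18 in WT and by 1.43 in KO (adjusted p = 0.00115 and 0.000233). Without unstimulated replicate 1 or LPS 1 h replicate 2, the 1 h call in WT was lost (adjusted p = 0.0854 and 0.0745).

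Srxn1 was highest at 1 h in both genotypes. WT channels gave 14.58 and 15.15 unstimulated, 15.65 and 16.57 after 1 h, 14.77 and 15.64 after 4 h, and 13.93 and 15.15 after 24 h. KO channels gave 15.17 and 14.90, 16.01 and 15.95, 14.83 and 14.56, and 14.58 and 14.03. Replicate 2 exceeded replicate 1 by 0.57 to 1.22 in WT, while in KO replicate 2 was the lower at every time. The 1 h differences of 1.24 in WT (SE 0.40, adjusted p = 0.084) and 0.95 in KO (SE 0.40, adjusted p = 0.223) missed the threshold, and the blocked fit called both (adjusted p = 7.52e-05 and 0.000866, beside 12.1% of all genes in WT and 11.6% in KO). Srxn1 fell by 1.29 from 1 to 4 h in KO (adjusted p = 0.0248), a call lost without LPS 1 h replicate 1, LPS 1 h replicate 2 or LPS 4 h replicate 2 (adjusted p = 0.0806, 0.0647 and 0.102) and with the Agilent processed signals (adjusted p = 0.0583). The same step was -0.90 in WT (adjusted p = 0.121, and 0.000244 in the blocked fit). From 4 to 24 h it was -0.67 in WT (adjusted p = 0.271, blocked fit 0.00264), and at 24 h KO cells stood at -0.73 from unstimulated (adjusted p = 0.224, blocked fit 0.00137).

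No LPS difference of Prdx1 passed the threshold. Its log2 intensity lay between 16.48 and 17.29 in the 8 WT channels and between 16.03 and 16.86 in the 8 KO channels, and no LPS difference exceeded 0.34 in size, the KO value at 1 h (SE 0.28, adjusted p = 0.634). A second Prdx1 probe gave LPS differences of -0.28 to -0.12 in WT and -0.62 to -0.39 in KO.

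Among the glutathione genes of the set, Gclc encodes the catalytic subunit of glutamate-cysteine ligase, the rate-limiting enzyme of glutathione synthesis, and Gclm its modifier subunit. Gclc intensities were 11.76 and 12.18 in unstimulated WT and 11.13 and 11.66 in WT at 24 h, against 11.83 and 12.02 in unstimulated KO and 11.26 and 11.24 in KO at 24 h. Each 24 h channel lay below the unstimulated channels of its genotype. Gclc was lower at 24 h by 0.58 in WT (SE 0.20, adjusted p = 0.0401) and by 0.68 in KO (SE 0.20, adjusted p = 0.0178), 1.49-fold and 1.60-fold. The WT call was lost without unstimulated replicate 2 (-0.36, adjusted p = 0.353), without LPS 24 h replicate 1 (-0.31, adjusted p = 0.4) without either LPS 4 h array (adjusted p = 0.0546) and with the Agilent processed signals (adjusted p = 0.0693). The KO call was lost without unstimulated replicate 2 (adjusted p = 0.104) or LPS 24 h replicate 2 (adjusted p = 0.0508), and both calls were lost with loess normalization alone (-0.33 in WT and -0.43 in KO, adjusted p = 0.296 and 0.155). From 4 to 24 h Gclc fell by 0.81 in WT (adjusted p = 0.00593) and by 1.06 in KO (adjusted p = 0.000794), and the WT call was lost without LPS 4 h replicate 2 or LPS 24 h replicate 1 (adjusted p = 0.0731 and 0.111) and with loess alone (adjusted p = 0.149). In KO the differences at 1 and 4 h were 0.35 and 0.38 (adjusted p = 0.406 and 0.17, blocked fit 0.036 and 0.00679). Gclm was between 10.65 and 11.86 in WT channels and between 10.40 and 10.95 in KO channels. None of its LPS differences passed the threshold, the largest being 0.40 between 4 and 24 h in KO (SE 0.28, adjusted p = 0.351, blocked fit 0.0401), with 0.39 in WT (adjusted p = 0.381, blocked fit 0.049).

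Nqo1 encodes a quinone reductase often used as a readout of NRF2 activity. WT channels were at 8.13 and 8.74 unstimulated, 8.17 and 8.65 after 1 h, 7.94 and 8.31 after 4 h, and 8.50 and 10.12 after 24 h. KO channels were at 8.28 and 8.23, 7.93 and 8.35, 7.88 and 7.79, and 9.60 and 9.13. Both KO channels at 24 h exceeded every earlier KO channel, and in WT only replicate 2 did so. From 4 to 24 h Nqo1 rose by 1.18 in WT (SE 0.39, adjusted p = 0.0367) and by 1.53 in KO (SE 0.39, adjusted p = 0.00834), 2.27-fold and 2.88-fold. Against unstimulated cells the 24 h difference was 0.87 in WT (adjusted p = 0.127) and 1.10 in KO (adjusted p = 0.0515), both called in the blocked fit (adjusted p = 0.0234 and 0.00573, beside 34.7% and 33.2% of all genes). The WT rise from 4 h rested on LPS 24 h replicate 2, without which it was 0.37 (adjusted p = 0.427). It was also lost without LPS 4 h replicate 1 (adjusted p = 0.21), LPS 4 h replicate 2 (adjusted p = 0.0783) or either unstimulated array (adjusted p = 0.0502), and the KO rise without LPS 4 h replicate 2 (adjusted p = 0.0541).

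Hmox1 encodes haem oxygenase-1, the inducible enzyme that breaks down haem. WT channels read 14.80 and 15.05 unstimulated, 15.22 and 15.39 after 1 h, 14.75 and 15.42 after 4 h, and 14.95 and 15.56 after 24 h. KO channels read 14.99 and 14.97, 15.27 and 15.18, 14.45 and 14.46, and 14.73 and 14.62. At 4 and 24 h both KO channels lay below both WT channels and below the unstimulated KO channels. KO was below WT on both arrays of the time for 22.6% of all genes at 4 h and 21.6% at 24 h. In KO the step from 1 to 4 h was called, a fall by 0.77 (SE 0.21, adjusted p = 0.0104), beside 31.7% of all genes, and it was lost without LPS 1 h replicate 1 (-0.72, adjusted p = 0.0751). The KO difference from unstimulated was -0.52 at 4 h (adjusted p = 0.0671, and 0.00295 in the blocked fit, which called 40.2% of all genes). None of the WT differences passed the threshold, ranging from -0.22 to 0.38. A second Hmox1 probe gave differences from unstimulated of 0.65, 0.35 and 0.56 in WT at 1, 4 and 24 h, and 0.58, -0.31 and -0.12 in KO.

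Sod2 encodes the manganese superoxide dismutase of mitochondria, a target of NF-κB as well as an antioxidant enzyme. WT channels were at 16.59 and 16.62 unstimulated, 17.31 and 17.30 after 1 h, 17.50 and 17.56 after 4 h, and 17.66 and 18.17 after 24 h. KO channels were at 16.35 and 16.07, 17.16 and 16.78, 17.57 and 17.54, and 17.87 and 17.73. Every LPS channel lay above every unstimulated channel. In WT the increase was 0.70, 0.92 and 1.30 at 1, 4 and 24 h (SE 0.16, adjusted p = 0.0133, 0.000353 and 2.21e-05), up to 2.47-fold. In KO it was 0.76, 1.35 and 1.59 (SE 0.16, adjusted p = 0.00937, 1.16e-05 and 3.75e-06), up to 3.01-fold. The 1 h calls were less stable than the later ones. In WT the 1 h call was lost without any 1 of the 4 unstimulated and LPS 1 h arrays (adjusted p between 0.0571 and 0.0895), and in KO without unstimulated replicate 2 (adjusted p = 0.118) or LPS 1 h replicate 1 (adjusted p = 0.147). From 1 to 4 h Sod2 rose in KO by 0.58 (adjusted p = 0.0118), a call lost without LPS 1 h replicate 2 (0.40, adjusted p = 0.169), LPS 4 h replicate 1 (adjusted p = 0.0727) or LPS 4 h replicate 2 (adjusted p = 0.0531), and from 4 to 24 h the WT difference was 0.38 (adjusted p = 0.0989, blocked fit 0.0301). With loess normalization alone the 1 h values were 0.82 and 0.91 (adjusted p = 0.148 and 0.104), and both calls were also lost with Aquantile normalization (adjusted p = 0.163 and 0.111) and the Agilent processed signals (adjusted p = 0.0794 and 0.0683). The KO step from 1 to 4 h was lost with loess alone and with Aquantile (adjusted p = 0.123 and 0.13).

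**Figure D2:**
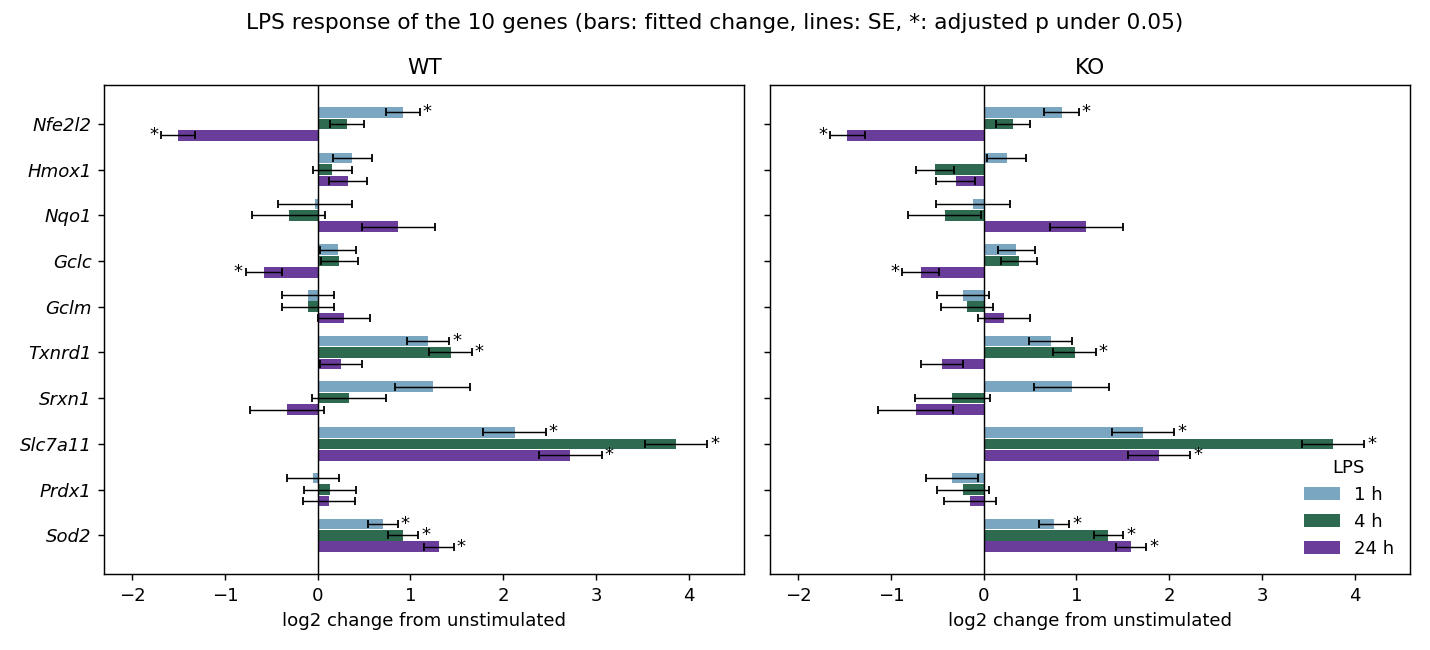
Fitted log2 change from unstimulated (x axis) for the 10 genes (y axis) in WT (left) and KO (right), with 1 bar for each of 1, 4 and 24 h of LPS, the SE as a line and an asterisk where the adjusted p was under 0.05. Slc7a11 carries the longest bars, 3.86 in WT and 3.77 in KO at 4 h, and Nfe2l2 at 24 h has the longest bars to the left, -1.50 and -1.47.

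The second question was whether the genotypes differed. In the fit of the log2 KO/WT ratio of each array, none of the 10 genes was called at any time point, and the whole array gave 0% of 36947 genes called in unstimulated cells, 0% after 1 h, 0.0108% after 4 h and 0.0217% after 24 h. At an unadjusted p under 0.05 the limma fit had 1 gene of the set in unstimulated cells (Sod2), beside 5.78% of all genes, 0 after 1 h, beside 5.56%, and 1 after 4 h and 1 after 24 h (Hmox1 in both), beside 4.3% and 3.39%. The methods' t-test had 0 of the 10 at each time before adjustment, beside 4.64%, 4.8%, 3.03% and 4.04% of all genes, and 0 after it. Averaged over the time points, 0 of the 10 were called, beside 0.595% of all genes, with 4 at an unadjusted p under 0.05, beside 3942 of the 36947 genes. The median ratio of the 10 genes was -0.17 for the mean over time points, against 0.00 over all genes tested. None of the genes was called for a shift of its ratio between unstimulated cells and 1, 4 or 24 h, where 0% of all genes were called, and 1 of them, Hmox1 at 4 h, had an unadjusted p under 0.05, beside 2.92% of all genes.

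In the blocked fit, 4 of the 10 genes were lower in KO for the mean over time points, beside 3.25% of all genes called lower in that fit. Hmox1 was also called lower at 4 h, beside 0.244% called lower, and at 24 h, beside 0.295%. The block removes what the arrays of a replicate share, dye orientation included, and the labels do not say that a replicate number marks a shared animal. It thus also removes the difference in KO/WT ratio between the replicates. Its KO/WT p-values rest on the spread over time points and do not measure the spread between replicates. The means of replicates 1 and 2 were -0.14 and -0.84 for Gclm, -0.07 and -0.55 for Hmox1, -0.01 and -0.78 for Prdx1, and -0.03 and -0.38 for Sod2. The ratios of the 2 replicates differed the same way over the time points, with a correlation of replicate 1 minus replicate 2 between 0.476 and 0.680 for the 6 pairs of time points across 36947 genes.

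Gclm had the lowest mean ratio. Its log2 KO/WT ratios were -0.26 and -0.59 in unstimulated cells, -0.23 and -0.86 after 1 h, -0.20 and -0.81 after 4 h, and 0.12 and -1.09 after 24 h. They were below 0 on 7 of 8 arrays, and each replicate 2 array lay lower than its partner. The mean was -0.49 (SE 0.14, 95% interval -0.80 to -0.18), a change of -28.7%, with an adjusted p of 0.193, and 0.00157 in the blocked fit (SE 0.06). The mean was -0.14 in replicate 1 and -0.84 in replicate 2. The interval treats the 8 arrays as independent, although arrays of a replicate deviated together. It therefore does not measure the spread between the replicates.

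Hmox1 ratios lay near 0 in unstimulated cells and after 1 h, and below 0 on all 4 later arrays. Ratios were below 0 on both 4 h arrays for 22.6% of all genes, and on both 24 h arrays for 21.6%. The ratios were 0.19 and -0.08 unstimulated, 0.06 and -0.21 after 1 h, -0.30 and -0.96 after 4 h, and -0.21 and -0.94 after 24 h. At 4 h the mean of -0.63 (SE 0.20) was a change of -35.4%, with an unadjusted p of 0.0120 and an adjusted p of 0.906 (blocked fit 0.0256). At 24 h it was -0.58 (SE 0.20, -33.0%), adjusted p = 1.00 and 0.0362 in the blocked fit. A second Hmox1 probe gave ratios of 0.00, -0.07, -0.66 and -0.68 at the 4 times. Between unstimulated cells and 4 h the Hmox1 ratio shifted by -0.68 (SE 0.28, unadjusted p = 0.0394, adjusted p = 1.00, blocked fit 0.246). The mean over time points was -0.31 (SE 0.10, adjusted p = 0.264, blocked fit 0.0065).

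Prdx1 ratios were 0.03 and -0.37 unstimulated, -0.24 and -0.68 after 1 h, -0.21 and -0.82 after 4 h, and 0.38 and -1.26 after 24 h. The 24 h arrays pointed in opposite directions. The mean was -0.40 (SE 0.16, adjusted p = 0.427, blocked fit 0.0241), and a second probe gave -0.35. Without LPS 24 h replicate 1 it was -0.60, and without LPS 24 h replicate 2 it was -0.19. Sod2 ratios were -0.24 and -0.55 unstimulated and -0.16 and -0.52 at 1 h, then 0.07 and -0.02 at 4 h and 0.21 and -0.43 at 24 h. Its mean was -0.21 (SE 0.08, adjusted p = 0.390, blocked fit 0.0368), and the unstimulated and 1 h arrays were all below 0. Without LPS 24 h replicate 2 the mean was -0.13.

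The other 6 genes had mean ratios between -0.18 and 0.04, and none was called with or without the block. Nfe2l2 was at 0.04 (95% interval -0.19 to 0.27) and Gclc at 0.00 (-0.17 to 0.18). Txnrd1 was at -0.10 (-0.36 to 0.16), Slc7a11 at -0.14 (-0.55 to 0.28), Nqo1 at -0.17 (-0.62 to 0.28) and Srxn1 at -0.18 (-0.67 to 0.31). Without LPS 24 h replicate 2 the means of Txnrd1, Slc7a11, Nqo1 and Srxn1 turned to 0.03, 0.08, 0.09 and 0.04, and without LPS 24 h replicate 1 they were -0.23, -0.35, -0.43 and -0.40. The Nfe2l2 mean ranged from -0.05 to 0.13 and the Gclc mean from -0.06 to 0.07 with 1 array left out. These intervals are wider for Srxn1 and Nqo1 than for Gclc. They also treat the arrays of a replicate as independent, so they do not bound the difference over new replicates.

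**Figure D3:**
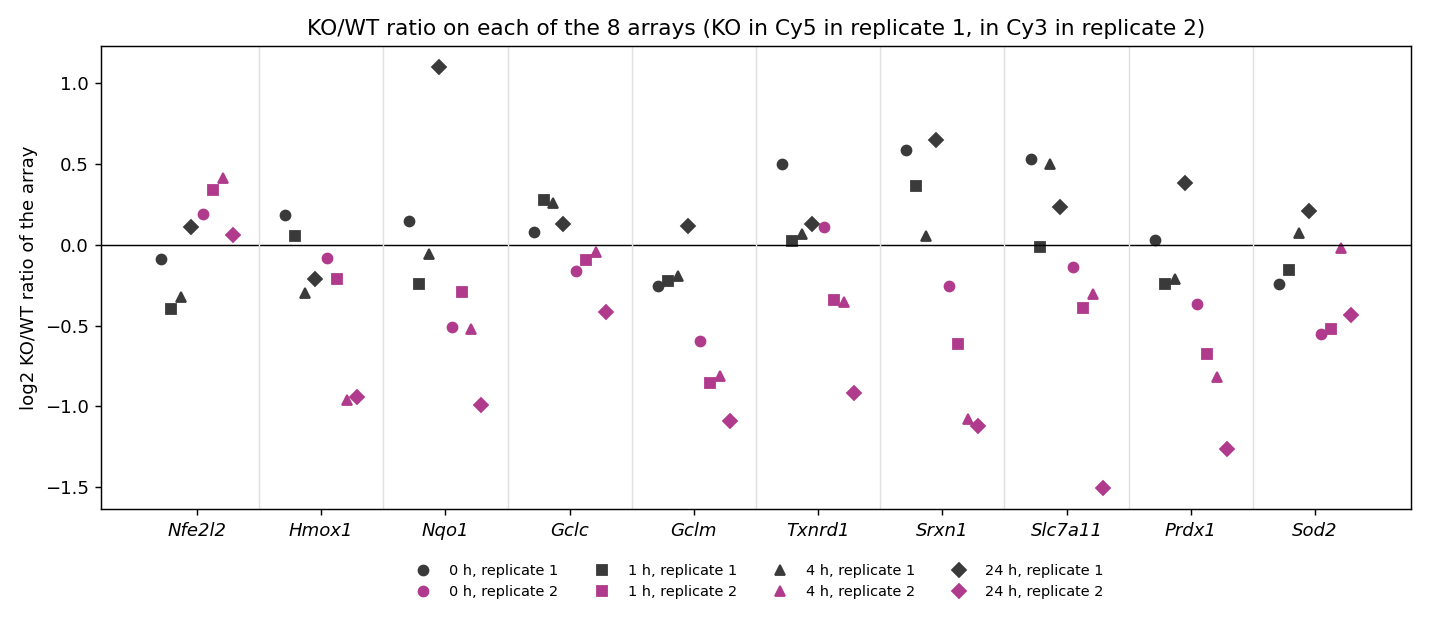
Log2 KO/WT ratio (y axis) of the 10 genes (x axis) on each of the 8 arrays, with grey symbols for replicate 1 (KO in Cy5), purple for replicate 2 (KO in Cy3) and the symbol shape for the time point. For 9 of the 10 genes the purple symbols have the lower mean, and Slc7a11 has the lowest single value, -1.51 on replicate 2 at 24 h.

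The ratios split by replicate in nearly the whole set. For 9 of the 10 genes the mean ratio was lower in replicate 2 than in replicate 1, by 0.35 (Sod2) to 1.18 (Srxn1), beside 50% of all genes, and Nfe2l2 alone was higher, by 0.42. On the replicate 2 arrays the median of the 10 genes was -0.21 unstimulated and -0.37, -0.44 and -0.96 after 1, 4 and 24 h of LPS. On the replicate 1 arrays it was 0.11, -0.09, 0.00 and 0.17. In WT channels replicate 2 read higher than replicate 1 in 36 of 40 pairs of gene and time, and in KO channels in 9 of 40. WT carried Cy5 in replicate 2, so a difference between dyes and a difference between the biological replicates cannot be told apart here.

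Marker sums were read on the same arrays. The summed intensity of the 8 macrophage markers, none of which was at background, lay between 17.93 and 19.50 (log2) in WT and between 17.27 and 18.92 in KO, and was lower in KO on 7 of 8 arrays with a mean of -0.37. Its KO/WT values were -0.48, -0.58, -0.26 and -0.47 in replicate 1 and -0.24, -0.32, 0.13 and -0.78 in replicate 2 at the 4 times, so they were lower in replicate 2 at 24 h only. Without Lyz2 the sum of the other 7 was lower in KO on 5 of 8 arrays, with a mean of -0.10. The T and NK cell sum, with a mean of 0.18, lay between 0.22 and 0.84 in replicate 1 and between -0.39 and 0.08 in replicate 2, and was the lower in replicate 2 at every time, as were the mean ratios of 9 of the 10 genes. The mast cell sum, with a mean of 0.43, split the other way, between -0.23 and 0.23 in replicate 1 and between 0.46 and 1.12 in replicate 2. The B cell sum was lower in KO on 2 of 8 arrays with a mean of 0.17, the neutrophil sum on 6 of 8, mean -0.12, and the mesothelial and stromal sum on 3 of 8, mean 0.01. The means of several sums turned on 1 array. The neutrophil mean was -0.04 without LPS 24 h replicate 1 and -0.35 without LPS 24 h replicate 2. On the latter array that sum stood at 1.51 and the 10 genes had their lowest median. The T and NK cell mean was 0.09 and the B cell mean 0.11 without LPS 1 h replicate 1, and the macrophage mean without Lyz2 was -0.02 without LPS 24 h replicate 2 and -0.19 without LPS 4 h replicate 2. Their part in the ratios of the 10 genes was not tested.

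Around these genes, 66 others of the pathway were read, in lists of NRF2 regulators, glutathione, thioredoxin and peroxiredoxin, NADPH supply, and haem, quinone and other detoxification. After 4 h of LPS 12 rose and 36 fell in WT, and 14 rose and 38 fell in KO, with medians of -0.62 and -0.66 against 0.00 over all genes, where 15.5% rose and 19.3% fell in WT and 16.2% and 19.8% in KO. The rising Slc7a11, Txnrd1 and Sod2 thus stood beside a larger number of pathway genes that fell. After 1 h, 3 rose and 7 fell in WT, beside 3.36% and 5.21% of all genes, and 4 rose and 9 fell in KO, beside 3.12% and 4.41%. After 24 h, 14 rose and 25 fell in WT, beside 13.6% and 16.8%, and 8 rose and 27 fell in KO, beside 13% and 15.8%. With loess normalization alone, 10 rose and 39 fell in WT at 4 h, beside 8.96% and 23.3% of all genes, and 10 rose and 38 fell in KO, beside 9.05% and 23.4%. At 24 h it gave 16 up and 20 down in WT, beside 14.1% and 12.5% of all genes, and 15 up and 20 down in KO, beside 13.5% and 11.5%. The median of the 66 genes at 24 h turned from -0.13 in each genotype to 0.10 in WT and 0.02 in KO.

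Over all genes, 13.7% rose and 17.5% fell at 4 h in both genotypes, the share against which the counts of each list stand. It includes genes whose probes were near background. Of the 13 NRF2 regulators, 5 rose and 1 fell at 4 h in both genotypes. Maff and Mafk encode small MAF proteins, the partners of NRF2 on DNA, and Nfe2l1 a related transcription factor. Maff was up by 3.85 in WT and 3.80 in KO at 4 h (SE 0.19, adjusted p = 2.47e-09 and 2.88e-09), after 4.64 and 4.16 at 1 h. Mafk was up by 1.98 and 1.95 (SE 0.12), and Nfe2l1 by 1.55 and 1.51 (SE 0.13).

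Of the 18 glutathione genes, 3 rose and 10 fell at 4 h in both genotypes. Gpx4, which reduces lipid peroxides, changed by -2.55 in WT and -2.63 in KO (SE 0.08, adjusted p = 4.31e-11 and 3.96e-11). Mgst1, a microsomal glutathione transferase, changed by -2.46 and -2.79 (SE 0.18), and Gpx1, the main cytosolic glutathione peroxidase, by -2.38 and -2.43 (SE 0.14). Of the 12 thioredoxin and peroxiredoxin genes, 3 rose and 7 fell in both. Sesn1, a stress-induced sestrin, changed by -5.12 and -5.11 (SE 0.19, adjusted p = 1.93e-10 and 1.99e-10), Txnip, an inhibitor of thioredoxin, by -1.95 and -2.18, and the peroxidase gene Prdx2 by -1.40 and -1.45.

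The 7 NADPH supply genes, whose products regenerate the reductant NADPH, had 0 up and 5 down in both genotypes at 4 h. Idh1 changed by -2.47 in WT and -2.72 in KO (SE 0.27), H6pd by -2.19 and -2.60 (SE 0.10) and G6pdx, which encodes the first enzyme of the pentose phosphate pathway, by -1.11 and -1.25 (SE 0.09). Of the 16 genes for haem, quinone and other detoxification, 1 rose and 12 fell in both. Slc48a1, a haem transporter, changed by -2.54 and -2.71 (SE 0.23), Cbr3, a carbonyl reductase, by -2.37 and -2.54 (SE 0.32), and Ephx1, microsomal epoxide hydrolase, by -1.80 and -1.76 (SE 0.19).

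**Figure D4:**
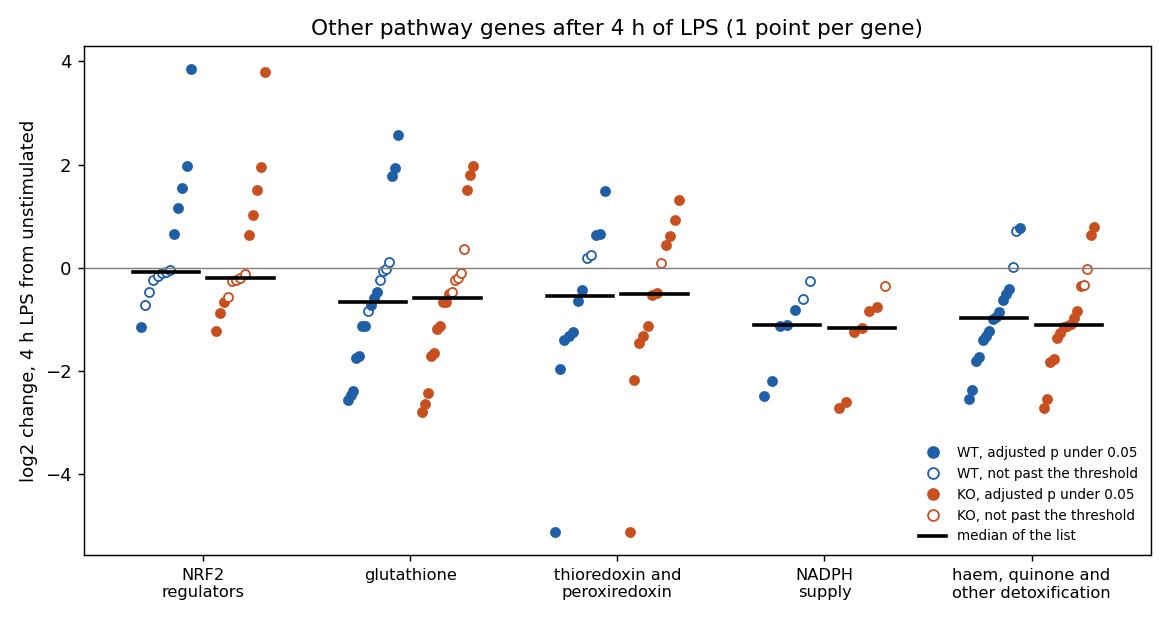
Log2 change from unstimulated to 4 h of LPS (y axis) of the 66 other pathway genes, 1 point per gene, grouped by list (x axis), blue WT and orange KO, filled where the adjusted p was under 0.05, with the median of each list as a black line. The NADPH supply points all lie below 0, and Sesn1 is the lowest point of either genotype, at -5.12 and -5.11.

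Between the genotypes, 2 of the 66 were called for the mean over time points, both lower in KO, beside 0.333% of all genes called lower and 0.263% called higher. Gpx4 was at -0.41 (SE 0.04, adjusted p = 0.0145) and H6pd, which makes NADPH in the endoplasmic reticulum, at -0.38 (SE 0.05, adjusted p = 0.0255), and both were lower on 8 of 8 arrays, which held for 1.45% of all genes. Both calls were lost with the Agilent processed signals (adjusted p = 0.157 and 0.175). The H6pd call was also lost without any 1 array (adjusted p between 0.0536 and 0.127), and the Gpx4 call without either unstimulated array or without replicate 2 of LPS 1, 4 or 24 h (adjusted p between 0.0512 and 0.0898), with values of -0.42 to -0.34 for both under these alternatives. The mean ratio of the 66 genes was below 0 for 52, with a median of -0.10 against 0.00 over all genes. All 7 NADPH supply genes were below 0, from -0.49 to -0.18. The block called 3 of the 66 higher and 18 lower, beside 2.81% and 3.25% of all genes.

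Across the 16 channels the genes most like each of the 10 were sought among 6684 named genes, as a description of time courses that share arrays, dyes and the LPS response. Nfe2l2 ran closest to Bmp2 (Pearson r = 0.974), Klf3 (0.971) and Dennd4a (0.970), and Slc7a11 to Gch1 (0.980), Gpr84 (0.966) and Myd88 (0.966). Txnrd1 ran closest to Gdf15 (0.948), Cnksr3 (0.940) and Tgif1 (0.938), and Sod2 to Camp (0.954), Cldnd1 (0.941) and Cxcl5 (0.936). Nqo1 ran closest to Ptgr1 (0.940), Akr1b8 (0.933) and Pcx (0.929), of which Akr1b8 is also in the detoxification list. Gclm was nearest Gss (0.865), which encodes glutathione synthetase, then Sqor (0.847) and Ptgr1 (0.831). The remaining genes had their nearest partners in Atxn1l (0.948), Btaf1 (0.935) and Fcer2a (0.933) for Gclc, Glipr1 (0.915), P2ry10b (0.907) and Pif1 (0.882) for Srxn1, Sqor (0.789), Marco (0.737) and Pls3 (0.731) for Prdx1, and Gde1 (0.751), P2ry10b (0.718) and Xlr4b (0.701) for Hmox1. Within the set the highest values were 0.84 for Nfe2l2 with Gclc and 0.82 for Gclm with Prdx1, and the lowest was -0.74 for Nfe2l2 with Nqo1.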

How the data were processed

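Per the file headers, the scanner files hold the intensity of each of 62976 spots per array in both channels, as the authors extracted it with Agilent Feature Extraction 10.7.3 (a version from the submitters' processing notes) without normalization between arrays. The authors also deposited a matrix of normalized log2 Cy5/Cy3 ratios, used as an alternative, whose column medians were 0.00612 to 0.0108 and which correlated with the ratios computed here at 0.986 to 0.993. All 8 arrays lie on 1 slide. Intensities were background-corrected (normexp, offset 50), loess-normalized within and quantile-normalized between arrays with limma 3.58.1 in R 4.3.3. Control spots and 169 to 284 outlier spots per array were left out. Of the gene probes, 43.8 to 51.3% were well above background per channel. Of 55681 probes, 27509 were named through RefSeq (20887 genes), and genes with a mean log2 intensity under 6 were left out. KO/WT ratios were fitted with lmFit and eBayes on all 8 arrays, LPS effects with the separate-channel model (within-spot correlation 0.0995), and p-values were adjusted by Benjamini-Hochberg. The number of arrays limits the precision. The fits were tested on simulated data. The members and lists were chosen with earlier results of these data known.

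Same-numbered arrays deviated together, with correlations of 0.476 to 0.680 for KO/WT ratios, 0.339 to 0.565 for WT and 0.215 to 0.337 for KO intensities, so the replicate block was read as pairing the samples, a pairing that comes from the data and not from the labels. KO and WT already share each array, so in the ratio fit the block takes out the difference between replicates. The replicates are called biological in the labels and independent experiments in the study, and whether they came from separate animals is not given in the sources used here. Named were the 10 genes, per list up to 3 other pathway genes with the largest change called the same way in both genotypes at 4 h, those called between KO and WT, and for each member the 3 genes of highest Pearson r (mean log2 intensity at least 8, range at least 1). Check genes were read singly and cell type markers as sums.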

Additional observations from a re-analysis of the deposited data

How the results depend on the processing

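Over 3130 values of the 10 genes under the alternatives, 2862 kept a call in its direction or stayed uncalled within the spread. Of the rest, 99 lost a call, 44 gained one and 125 moved by more than the spread. With a call in either fit, 0 reversed. A change of sign of an uncalled value was not counted as reversed, and the means of Txnrd1, Slc7a11, Nqo1 and Srxn1 changed sign without LPS 24 h replicate 2. The number of genes called with the replicate block was 1 for KO/WT at 4 h, 1 at 24 h and 4 for the mean, 8 for WT 24 h from 4 h, beside 34.6% of all genes in that fit, and 6, 5 and 7 for KO at 1, 4 and 24 h, beside 11.6%, 40.2% and 33.2%, and the block moved no other count by over 1.5 times. The methods' t-test on 2 against 2 channels, adjusted over all genes, called Sod2 in WT at 4 h, beside 5.1% of all genes, and in KO at 4 h Hmox1, lower and not among the 38 calls of the fit without the block, beside 1.97%. It called 0 in every other LPS comparison, beside 0% to 1.46%, and 37 of the 38 calls were lost with it. For 4 h from 1 h, loess alone called 1 in WT, beside 28.3% of all genes, and 3 in KO, beside 29.3%, and Aquantile normalization and the Agilent processed signals called 3 each in KO, beside 31.4% and 32%. With 1 array left out at a time, the count was 2 to 5 for WT at 1 h, 3 to 4 at 4 h, 3 to 6 at 24 h, 1 to 2 for 4 h from 1 h and 2 to 5 for 24 h from 4 h. For KO it was 1 to 4, 3 to 4, 3 to 5, 2 to 4 and 4 to 5, and for every KO/WT comparison 0 to 0. The share of all genes called in those fits was 4.9 to 8.94% for WT and 3.99 to 7.74% for KO at 1 h, and 23.3 to 35.2% in the other LPS comparisons. Where leaving an array out left 1 array at a time point, that array was assumed to vary like the others. Apart from the t-test, 21 of the 38 LPS calls kept the threshold under each alternative and 17 lost it under at least 1. Without the block, the KO/WT differences of Hmox1 and Gclm did not pass the adjustment over all genes. For the mean KO/WT ratio over all genes, 220 were called, against 2239 with the block, 0 with the Agilent processed signals, 111 with the mean over all probes and 1 to 154 with 1 array left out, the fewest without unstimulated replicate 1. Loess alone placed the median of all genes at -0.16 for 4 h from 1 h in both genotypes, against 0.00 in WT and 0.01 in KO. The cause of these differences was not tested.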
